A study of Homo sapiens with 6 samples.

Results

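The transcripts described here code for 10 proteins of the poly(ADP-ribose) polymerase (PARP) family and its close partners outside the tankyrases: PARP1, PARP2, PARP4, PARP8, PARP9, PARP10, PARP12, PARP14, ZC3HAV1 and DTX3L. They were found by symbol among probe sets annotated to a single gene, which gave 20 probe sets of the 54613 on the array that are not controls. The cells were NCI-H292, a human lung cancer line with mucoepidermoid features, stably transfected either with CT45A1 joined to the fluorescent protein Venus (CT45A1 overexpression, 3 arrays) or with the Venus vector (CT45A1 negative, 3 arrays). All arrays came from the same line, the same growth medium and total RNA. The labels do not say whether a group was 1 clone or a pool, or whether its replicates were separate cultures, and the p-values below therefore describe array-to-array spread, possibly of technical origin. In bulk RNA, fewer cells making a transcript and less of it per cell cannot be told apart. CT45A1 is a cancer/testis antigen, a protein normally made mainly in testis and found again in some tumours.

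PARP enzymes move ADP-ribose from NAD onto proteins and nucleic acids. PARP1 and PARP2 are switched on by DNA breaks and build long chains that call repair factors, while most other members add single units. A further branch, with PARP9 and its ubiquitin ligase partner DTX3L, PARP10, PARP12, PARP14 and the RNA-binding ZC3HAV1 (also called ZAP), is known for induction by interferon and for roles in antiviral defence. In airway epithelium these genes belong to the common interferon response.

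Values are MAS5 signals, a linear intensity, and a difference is the mean log2 signal with CT45A1 less the mean without it. Signal over both probe sets annotated to CT45 genes was 154 to 700.1 on the overexpression arrays and 1.95 to 36.3 on the negative arrays. The median signal of an array was 79.2 to 83.3 with CT45A1 and 72.6 to 75.6 without it, a difference of 0.14 in the mean log2 median, so centring each array on its median lowers every difference by that amount. The actin 3'/5' signal ratio, which moves with RNA integrity and labelling length, was 1.42 to 1.55 with CT45A1 and 1.64 to 1.91 without it. The groups did not overlap in this ratio, so group and ratio cannot be fully told apart in a model that holds both. All 8 epithelial markers were above the array median on at least 3 arrays, against 1 of 3 leukocyte, 2 of 4 endothelial and 0 of 6 fibroblast markers. The summed signal of the epithelial markers was 73534 to 74530.5 with CT45A1 and 75045 to 81659 without it. For leukocyte markers these ranges were 227 to 333 and 174 to 278, for endothelial markers 374 to 455 and 271 to 345, and for fibroblast markers 169 to 204 and 110.2 to 164. A sum gives most weight to the brightest gene, for the epithelial markers KRT18, which differed by -0.25 (limma adjusted p = 0.0367). By gene, 5 of the 8 epithelial markers differed by more than 0 and 3 by less, with a median difference of 0.09. The part of these marker signals in the results was not tested.

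PARP9 and DTX3L rose with CT45A1, and no other of the 10 genes passed the test in either direction. PARP9 was higher by 0.52 on the log2 scale and DTX3L by 0.30. PARP14, their neighbour on chromosome 3, lay in the same direction without passing. Among the 16 probe sets above the filter on dim signals (above the array median on at least 3 arrays), 2 were higher at an adjusted p under 0.05 and 0 lower. Over all 27618 probe sets tested, 1.89% were called higher and 1.34% lower, 3.23% in all. With 1 probe set for each gene, 2 of the 10 genes were higher and 0 lower, against 1.94% and 1.89% of 11895 genes, 3.83% in all. Among the 16 probe sets, 4 had an unadjusted p under 0.05 in limma, as did 20.7% of all probe sets tested and 20.9% of all genes. The median difference over all 20 probe sets, dim ones included, was 0.10, against 0.06 over all probe sets of the array. The family median was -0.04 after centring on the array median, which lowers every difference alike. Over the 27618 probe sets tested the median was then -0.11, against 0.03 before centring.

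**Figure D1:**
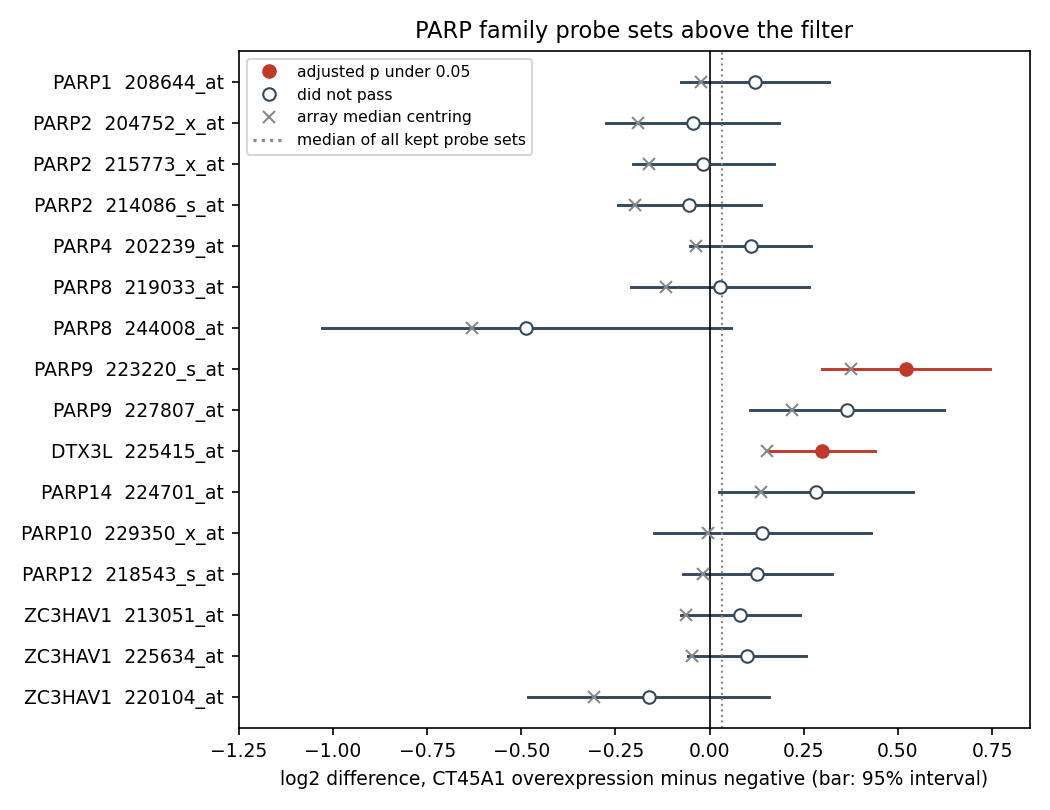
Log2 difference of each of the 16 PARP family probe sets above the filter (points), with its 95% interval from limma (bars), n = 3 arrays per group. Filled red points passed an adjusted p of 0.05, crosses give the difference after centring each array on its median, and the dotted line marks the median of all probe sets tested. Only the brighter PARP9 probe set and DTX3L are filled.

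PARP9, a macrodomain protein that reads ADP-ribose and works as a pair with DTX3L, has 2 probe sets. At the brighter probe set the signal read 1303, 1186 and 1059 with CT45A1, in replicate order, and 864, 816 and 785 without it. Every overexpression array lay above every negative array. The difference was 0.52 (SE 0.10, limma adjusted p = 0.0248), a fold of 1.44. Mean log2 signal was 9.68 ± 0.07 in negative and 10.2 ± 0.15 in overexpression cells (SD, n = 3). The dimmer probe set read 631, 627 and 654 against 461, 461 and 572, again with no overlap between the groups. Its difference was 0.36 (SE 0.12, limma adjusted p = 0.118), which did not pass.

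The call for the brighter PARP9 probe set was lost without overexpression replicate 1 or 2 (limma adjusted p = 0.0947 and 0.108) and without negative replicate 1 or 2 (limma adjusted p = 0.0636 and 0.0637), at differences of 0.45 to 0.56. Adding the actin ratio, which did not overlap between the groups, to the model gave a difference of 0.32 with a wider SE, 0.17 (limma adjusted p = 0.350). In that model the dimmer probe set moved the other way, from 0.36 to 0.66 (SE 0.18, limma adjusted p = 0.0936). Without the variance trend the brighter probe set did not pass (limma adjusted p = 0.106). The dimmer probe set passed without negative replicate 3, at 0.47 (limma adjusted p = 0.0455).

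DTX3L, a ubiquitin ligase of the Deltex family that binds PARP9, has 1 probe set. Its signal was 3238, 3309.8 and 3252 with CT45A1 and 2612, 2662 and 2700.3 without it. The arrays within a group lay close together, and the groups did not overlap. The difference was 0.30 (SE 0.06, limma adjusted p = 0.0362), a fold of 1.23. Log2 signal was 11.4 ± 0.02 in negative and 11.7 ± 0.02 in overexpression cells (SD, n = 3). The call was lost without overexpression replicates 1, 2 or 3 (limma adjusted p = 0.107, 0.145 and 0.0732) and without negative replicates 1 or 2 (limma adjusted p = 0.108 and 0.0855), while the difference stayed between 0.29 and 0.31 with any single array left out. After centring on the array median the difference was 0.15 (limma adjusted p = 0.201). With the actin ratio in the model it was 0.33 (SE 0.11, limma adjusted p = 0.156). DTX3L also did not pass without the variance trend or, among probe sets, without a filter (limma adjusted p = 0.135 and 0.0572).

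PARP14, a large macrodomain enzyme that adds single ADP-ribose units, read 1195, 932 and 919.5 with CT45A1 and 778, 874 and 838 without it at its bright probe set. The groups did not overlap, but overexpression replicate 1 stood well above the others. The difference was 0.28 (SE 0.12, limma adjusted p = 0.205), with a 95% interval of 0.02 to 0.54. Leaving out overexpression replicate 1 gave 0.16, and adding the actin ratio to the model gave 0.11. The other PARP14 probe set lay below the median of all 6 arrays, at 46.6 to 70.6 with CT45A1 and 33 to 72.0 without it, and the groups overlapped.

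**Figure D2:**
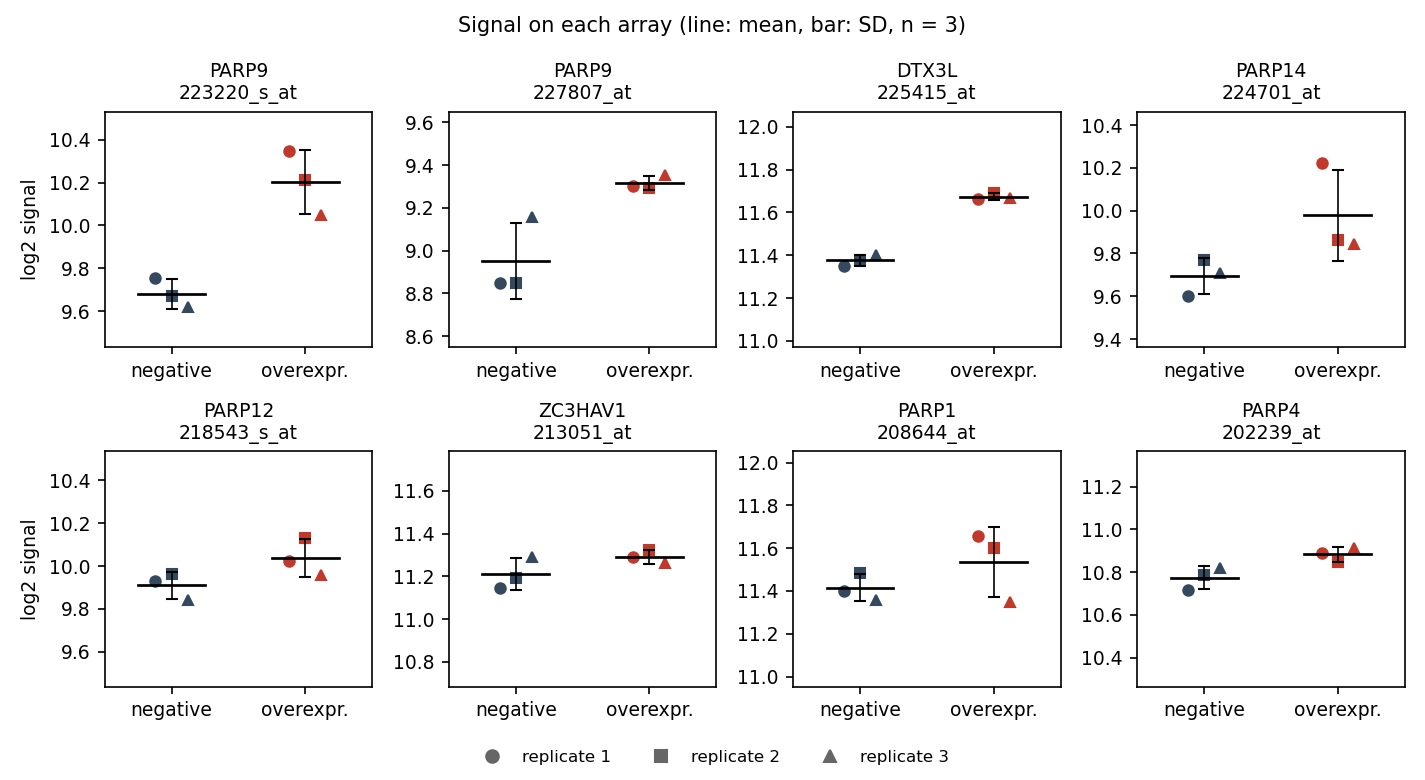
Log2 signal on each array for 8 PARP family probe sets, in negative and overexpression cells, with the group mean (line) and SD (bar, n = 3); each panel spans the same range of log2 units, and marker shapes are the replicate numbers. The groups do not overlap in the PARP9, DTX3L, PARP14 and PARP4 panels and overlap in the PARP12, ZC3HAV1 and PARP1 panels.

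PARP9, DTX3L, PARP15 and PARP14 follow one another on chromosome 3, with PARP9 and DTX3L starting head to head, per RefSeq's GRCh38.p14 annotation. The promoter stretches of DTX3L and PARP14, and that of PARP12 on chromosome 7, are shown because each holds GAAA, any 2 bases and GAAA again, the core of the interferon-stimulated response element. The match is in capitals, and each stretch is written 5′ to 3′ on the strand of its gene, from 70 bases before the match to 10 bases after it.
DTX3L, chr3:122564262-122564351, plus strand: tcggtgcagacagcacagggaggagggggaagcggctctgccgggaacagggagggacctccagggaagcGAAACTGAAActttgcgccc
PARP14, chr3:122680740-122680829, plus strand: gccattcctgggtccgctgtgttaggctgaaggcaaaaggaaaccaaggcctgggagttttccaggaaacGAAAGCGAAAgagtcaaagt
PARP12, chr7:140062942-140063031, minus strand: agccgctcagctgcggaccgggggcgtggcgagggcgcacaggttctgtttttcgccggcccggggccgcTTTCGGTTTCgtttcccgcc
The DTX3L match begins 6 bases before that gene's annotated start, the PARP14 match 29 bases before and the PARP12 match 10 bases before, where it reads on the opposite strand. The DTX3L match, at chr3:122564332-122564341, also lies in 1 of the 2 PARP9 promoter windows, beginning 41 bases before that start, so PARP9 and DTX3L share 1 match.

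The letters were searched on both strands in windows from 250 bases before to 50 after each RefSeq start. Windows were given for 8 of the 10 genes, all but PARP4 and PARP10, 11 windows in all. The interferon element core stood in windows of PARP9, DTX3L, PARP14 and PARP12, and in none of PARP1, PARP2, PARP8 and ZC3HAV1. Of the 11 windows 36.4% held it, of all 35116 windows 3.57%, and of the windows of the interferon-stimulated genes listed here 58.1%. Counted by gene these shares were 50%, 4.38% and 70%. By window and by gene, the match shared by PARP9 and DTX3L was counted for both. Of the 9 windows of 6 other ADP-ribosyltransferases, 0 held the core. These matches are descriptions of sequence. Of the 4 genes with a match, PARP9 and DTX3L passed the expression test, and PARP14 and PARP12 did not. PARP3, described below, passed that test without a match in its window.

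Of the 6 protein-coding genes on each side of this block, 9 were bright enough to test. Of these 0 passed in limma, against 3.83% of all genes, so so few genes cannot set the neighbours apart from the array. Their differences ran from -0.42 for MIX23 to 0.35 for SEMA5B, with a median of -0.09. HSPBAP1, next to PARP14, differed by 0.29 (SE 0.10, limma adjusted p = 0.142) with no overlap between the groups, and KPNA1, next to PARP9, by -0.09. PARP15, which lies inside the block, was dim on every array. Its brighter probe set read 10.8, 41.1 and 31.3 with CT45A1 and 5.06, 3.72 and 15.3 without it, so no fold is given.

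**Figure D3:**
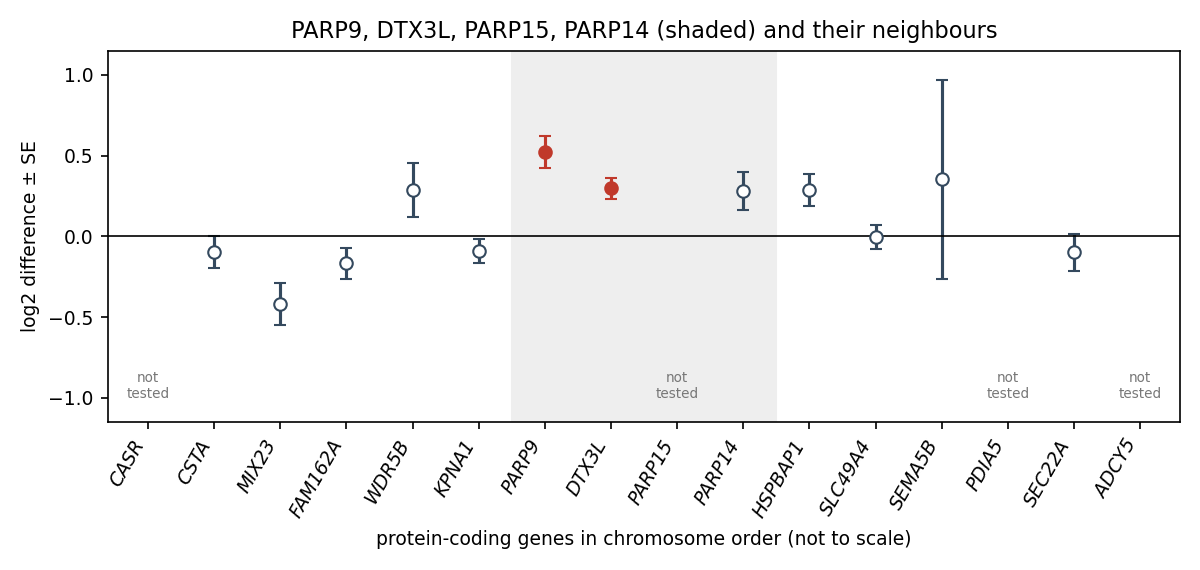
Log2 difference (points) and limma's SE (bars) for protein-coding genes in their order on chromosome 3, 1 probe set per gene, with the block from PARP9 to PARP14 shaded; filled red points passed an adjusted p of 0.05. PARP9 and DTX3L are filled at 0.52 and 0.30, and the 9 tested neighbours lie between -0.42 and 0.35.

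The other antiviral members differed less or overlapped. PARP12, a zinc finger enzyme that adds single units and binds RNA, read 1039.9, 1123 and 994 against 976, 997 and 917. The lowest overexpression array lay within the negative range. Its difference was 0.13 (95% interval -0.07 to 0.32, limma adjusted p = 0.449). ZC3HAV1, which binds CpG-rich viral RNA and lacks catalytic activity, has 3 probe sets. The brightest read 2503.5, 2563 and 2454 against 2266, 2342 and 2506, a difference of 0.08 (95% interval -0.08 to 0.24). The second read 2366, 2409 and 2593 against 2308, 2257 and 2310.1 and did not overlap, at 0.10. The third lay the other way, at 297, 337 and 302 against 300.3, 399 and 353, with a difference of -0.16. The limma adjusted p of the 3 probe sets was 0.551, 0.455 and 0.562. After centring on the array median PARP12 and the brighter 2 ZC3HAV1 probe sets lay below 0, at -0.02, -0.06 and -0.05. The median over all probe sets tested was then lower, at -0.11.

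PARP10, which adds single ADP-ribose units and has been tied to cell cycle and antiviral functions, has 4 probe sets, of which 1 was above the filter. That one read 331, 301 and 336 with CT45A1 and 283, 284 and 312 without it, overlapping by 1 array. The difference was 0.14 (95% interval -0.15 to 0.43, limma adjusted p = 0.579). After centring on the array median it was -0.01, against a median of -0.11 over all probe sets tested. Its name ends in _x_at, the mark of probe sets that can match several transcripts. The remaining PARP10 probe sets were dim and did not lie on one side. The first gave 48.02, 72.4 and 47.1 against 17.6, 18.8 and 29.6, higher with CT45A1 on all arrays. The second gave 19.9, 9.31 and 17.2 against 20.8, 52.4 and 89.7, lower with CT45A1 on all arrays. The third gave 5.05 to 43.4 against 16.4 to 36.4. The group means of all 3 lay below the array median, so no fold is given. Without a filter their limma adjusted p was 0.331, 0.375 and 0.756.

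The DNA break sensors showed no change past the test. PARP1, the most abundant nuclear PARP, read 3227, 3105.5 and 2609 with CT45A1 and 2704, 2864 and 2627 without it. Its groups overlapped, with overexpression replicate 3 as the lowest of all 6 arrays. The difference was 0.12 (95% interval -0.08 to 0.32, limma adjusted p = 0.472). Adding the actin ratio to the model gave -0.10. Centring on the array median gave -0.02, against a median of -0.11 over all probe sets tested.

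PARP2, its smaller relative in base excision and single-strand break repair, has 3 bright probe sets. The brightest read 1721, 1752 and 1705 against 2035, 1822 and 1521, so the overexpression arrays fell inside the negative range. The second read 1714 to 1737 against 1579 to 1886, and the third 1172 to 1303 against 1229.8 to 1362. Differences were -0.04, -0.02 and -0.05, with 95% intervals of -0.27 to 0.18, -0.20 to 0.17 and -0.24 to 0.14.

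PARP4, a large enzyme found in cytoplasmic vault particles, read 1896, 1842 and 1929 with CT45A1 and 1682, 1767 and 1808 without it. The groups did not overlap, but the difference was small, at 0.11 (SE 0.07, limma adjusted p = 0.426). After centring on the array median the PARP4 difference was -0.04, against a median of -0.11 over all probe sets tested. Of its vault partners listed, MVP, the major vault protein, was tested and differed by 0.01 (SE 0.16). PARP8, which adds single units, read 665, 737 and 693 against 694, 616 and 749 at its bright probe set, a difference of 0.03 (95% interval -0.21 to 0.26). Its dim probe set read 118, 122 and 107 against 197, 180.4 and 119, a difference of -0.49 (SE 0.25, limma adjusted p = 0.290). There overexpression replicate 2 lay just above negative replicate 3, so the groups overlapped.

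Across the 16 probe sets above the filter, 6 had every overexpression array above every negative array and 0 the reverse. The corresponding shares over all probe sets tested were 15.2% and 11.4%. The 6 belonged to PARP9 (both), DTX3L, PARP14, PARP4 and ZC3HAV1. With the dim probe sets included, 7 of 20 lay above and 1 below, against 11.3% and 7.65% over the array, the additional ones both of PARP10.

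The rest of the ADP-ribosyltransferase family was measured by 5 tested genes, of which PARP3 rose, against 1.94% of all genes. PARP3, a nuclear enzyme of double-strand break repair, read 354, 333 and 464 with CT45A1 and 222, 195 and 204 without it. Every overexpression array was above the negative ones. The difference was 0.88 (SE 0.16, limma adjusted p = 0.0196), a larger value than for any of the 10 genes above at its brightest probe set. The call was lost without any one of overexpression replicates 1, 2 and 3 (limma adjusted p = 0.0590, 0.0537 and 0.0569) or negative replicates 1 and 2 (limma adjusted p = 0.0572 and 0.0624). With the actin ratio in the model the difference was larger, at 1.05, but so was its SE, at 0.30, and the call was lost (limma adjusted p = 0.0807). PARP3 also lost the call without the variance trend (limma adjusted p = 0.0873). PARP6, PARP11, PARP16 and TIPARP differed by 0.15, -0.23, 0.11 and -0.03 at their brightest probe sets and did not pass.

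The PARP6 probe sets moved apart in size, and they are described here because their values stood out. The brightest read 1100.3, 1205 and 1369 against 1122, 1111 and 1069 and overlapped. The dimmest read 478, 482 and 471 against 282, 254 and 337, a difference of 0.72 (SE 0.13, limma adjusted p = 0.0224). Its call was lost without overexpression replicates 1, 2 or 3 (limma adjusted p = 0.0850, 0.101 and 0.0592) and without negative replicates 1 or 2 (limma adjusted p = 0.0738 and 0.0634). Without the variance trend this probe set did not pass either (limma adjusted p = 0.0786). The third differed by 0.31 (limma adjusted p = 0.0835), with no overlap, and the mean over the PARP6 probe sets by 0.39 (limma adjusted p = 0.0317). Of the tankyrases, TNKS differed by 0.13 and overlapped, and TNKS2 fell at its brightest probe set, by 2.19 (SE 0.17, limma adjusted p = 0.000216), while its other tested probe sets differed by -0.34 and 0.03.

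The genes that remove or read ADP-ribose gave no call. Of 13 tested, 0 passed in either direction in limma, 1 had an unadjusted p under 0.05 (20.9% of all genes), and the median difference was 0.01 against 0.01 over all genes. PARG, which degrades the chains, read 847 to 854 with CT45A1 and 780.2 to 892 without it, a difference of 0.01 (SE 0.09). MACROH2A1, a histone variant with a macrodomain, had the smallest p of the list, at -0.23 (SE 0.06, limma adjusted p = 0.0729), and its other tested probe sets ran from -0.18 to 0.37. HPF1, which directs PARP1 and PARP2 to serine, differed by -0.15 (SE 0.07, limma adjusted p = 0.272). After centring on the array median 2 genes of this list passed downward, a share near the 13.9% of all genes that did.

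Of 10 tested genes of NAD synthesis, which makes the substrate of these enzymes, NADK rose and none fell. Over all genes 1.94% were called higher and 1.89% lower. NADK, which turns NAD into NADP, differed by 0.34 (SE 0.08, limma adjusted p = 0.0439) at its brightest probe set, with 0.004 at the next brightest, and by 0.30 (limma adjusted p = 0.189) as the mean of its probe sets. Without overexpression replicates 1, 2 or 3 its limma adjusted p was 0.144, 0.153 and 0.0864, and without negative replicates 1 or 2 it was 0.132 and 0.125. The NADK call held in 4 of 17 alternatives. It was also lost after quantile normalization, cyclic loess or without a filter (limma adjusted p = 0.0556, 0.0545 and 0.0564), without the variance trend (0.151), with the replicate block (0.0517), with the actin ratio in the model (0.157) and after centring on the array median, at 0.20 (0.140). NAMPT, the rate-limiting enzyme of NAD salvage, differed by -0.24 (SE 0.09, limma adjusted p = 0.178). Its next brightest probe set differed by -0.33 (SE 0.09, limma adjusted p = 0.0880), with no overlap between the groups. The remaining tested NAMPT probe sets differed by -0.008 and -0.06. Of 7 partners in single-strand break repair 0 passed in limma, with 1 at an unadjusted p under 0.05 (20.9% of all genes), FEN1, a flap endonuclease, at -0.23. The dimmer FEN1 probe set differed by 0.04. XRCC1, the scaffold that binds PARP1 chains, differed by 0.05 (SE 0.15).

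Partners of the antiviral members gave no call at their brightest probe sets. Of 9 genes listed as ZAP cofactors or RNA decay factors 0 passed in limma, and 4 had an unadjusted p under 0.05, against 20.9% of all genes. DDX17, an RNA helicase that binds ZAP, had the smallest p, at -0.21 (SE 0.06, limma adjusted p = 0.0773). A dimmer DDX17 probe set read 168, 178 and 205 with CT45A1 and 412, 368 and 417 without it, and fell by 1.12 (SE 0.15, limma adjusted p = 0.00527). Its call was lost without the variance trend (limma adjusted p = 0.0585) and with the actin ratio in the model, at -0.88 (limma adjusted p = 0.115). The remaining 3 tested DDX17 probe sets differed by -0.97, -0.10 and 0.04 and did not pass. RIGI, an RNA sensor, differed by 0.44 (SE 0.14, limma adjusted p = 0.116) and KHNYN, a nuclease that works with ZAP, by 0.27 (SE 0.09, limma adjusted p = 0.141). TRIM25, a ubiquitin ligase that ZAP needs, differed by 0.03. The 3 Deltex relatives of DTX3L tested, DTX4, DTX2 and DTX3, lay above 0 at 0.33, 0.22 and 0.19, with limma adjusted p of 0.0879, 0.222 and 0.667, so 0 passed in limma and 2 had an unadjusted p under 0.05, against 20.9% of all genes.

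Interferon-stimulated genes outside the family were higher on the same arrays. Of 32 tested 21 rose and 0 fell, against 1.94% and 1.89% of all genes, and their median difference was 0.65. The largest were IFI44L, IFI27 and IFIT1, at 2.13, 1.47 and 1.46. The mean log2 signal of the list over all 36 genes was 10.06, 9.96 and 9.76 with CT45A1, in replicate order, and 9.20, 9.24 and 9.20 without it. Overexpression replicate 1, the highest for this list, was also the highest for the brighter PARP9 probe set and for PARP14, but not for DTX3L. The dimmer PARP9 probe set was highest on overexpression replicate 3. Overexpression replicate 1 also had the highest array median, 83.3, and the lowest actin ratio, 1.42, and the cause of this order was not tested. Without overexpression replicates 1 or 2, or negative replicate 1, 10, 10 and 12 genes of the list passed. Over all genes 0.48%, 0.34% and 0.50% were then higher, against 1.94% with every array. With the actin ratio in the model 10 passed, against 2.28% of all genes higher.

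Of 11 interferon receptors, kinases and transcription factors tested, TYK2 and IRF9 rose and none fell, against 1.94% and 1.89% of all genes. TYK2, a kinase of the type I interferon receptor, rose by 0.70 (SE 0.11, limma adjusted p = 0.0111), with signals of 947 to 1007 against 511 to 660.02. IRF9, the DNA-binding subunit of the factor that acts on the interferon element, rose by 0.73 (SE 0.13, limma adjusted p = 0.0191), with 821 to 1151 against 528 to 648. IRF9 lost the call without overexpression replicates 1 or 2 or negative replicate 1 (limma adjusted p = 0.0713, 0.0850 and 0.0689) and TYK2 without overexpression replicates 1 or 2 (limma adjusted p = 0.0514 and 0.0537). Without the variance trend IRF9 and TYK2 did not pass (limma adjusted p = 0.123 and 0.0936), and 0.042% of all genes were called higher. With the actin ratio in the model IRF9 differed by 0.30 (limma adjusted p = 0.424) and TYK2 by 0.82 (limma adjusted p = 0.0532). The median over the 11 genes was 0.08.

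**Figure D4:**
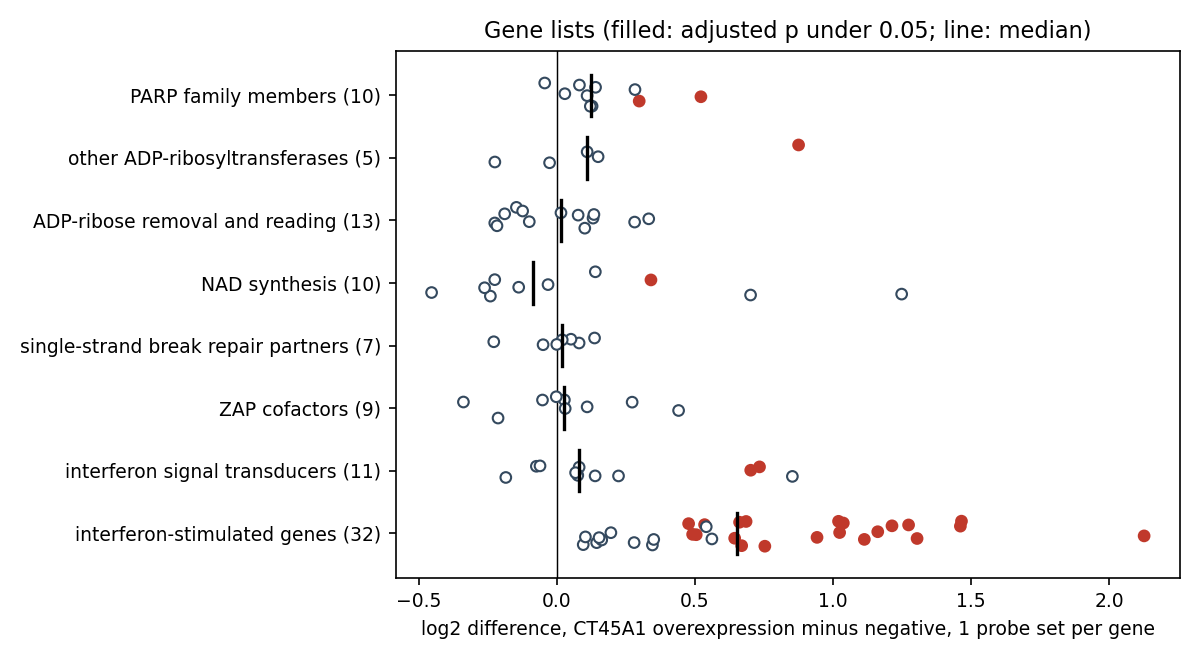
Log2 difference of each tested gene (points, 1 probe set per gene) in the PARP family and 7 related lists, with the number of genes in brackets and the list median as a line; filled red points passed an adjusted p of 0.05 over 11895 genes. The interferon-stimulated genes have their median at 0.65, and the medians of the other lists shown lie between -0.09 and 0.12.

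The genes whose pattern over the 6 arrays lay closest to the mean pattern of PARP9, DTX3L and PARP14 were CASP8, CDK2AP2, SPECC1, HOXC6, CBLN3 and HLA-F. Likeness was the root mean square distance in log2 units between profiles each centred on its own mean, over 11885 genes. It ran from 0.03 for CASP8 to 0.04 for HLA-F, while PARP9, DTX3L and PARP14 lay 0.08 to 0.09 from their own mean. With 6 arrays in 2 groups many genes share such a pattern, and nothing about function or control follows from it.

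**Figure D5:**
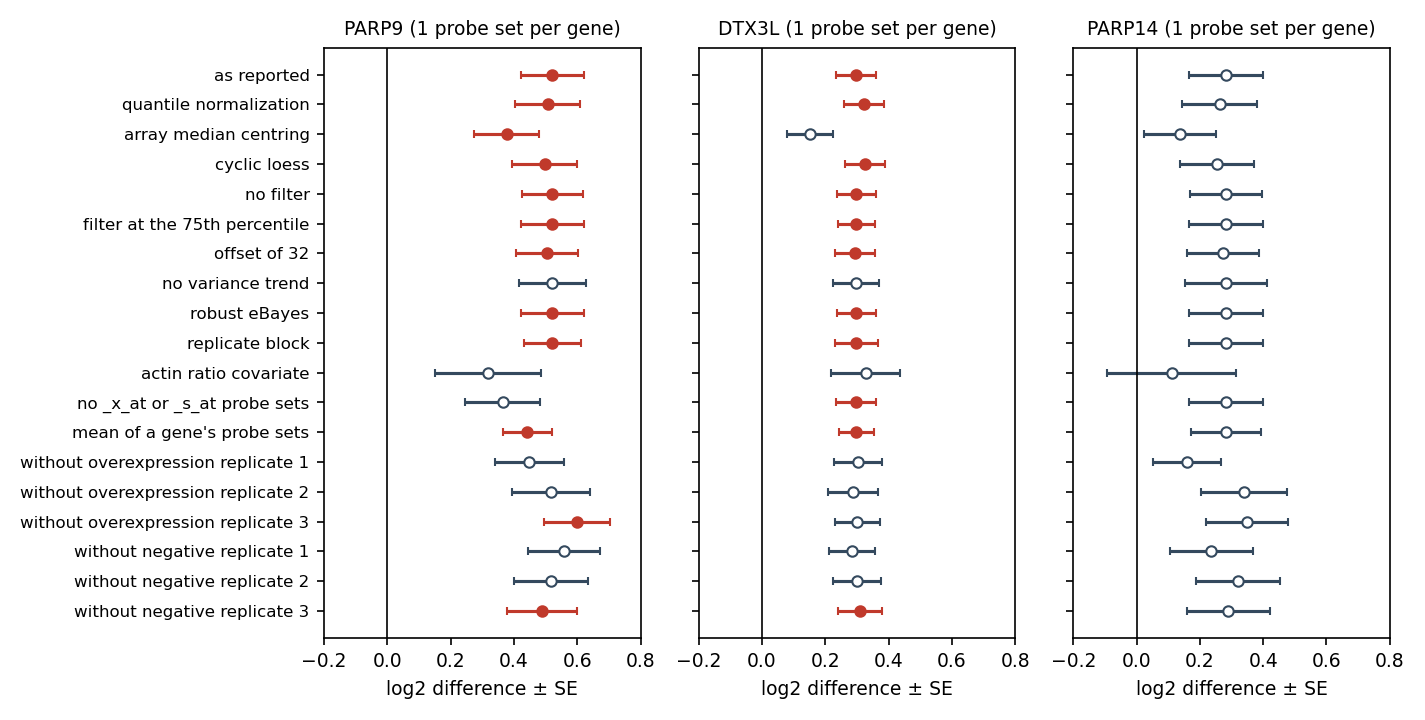
Log2 difference (points) and limma's SE (bars) of PARP9, DTX3L and PARP14 under the reported setting and each alternative, 1 probe set per gene, with filled red points where the adjusted p was under 0.05. All differences lie above 0; PARP9 was past the threshold in 11 of 18 alternatives, DTX3L in 10 of 18 and PARP14 in 0 of 18.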

How the data were processed

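The deposited values are a linear intensity for each probe set. The submitters' processing notes name MAS5 and affy, with no version in the sources used here. Their 2% trimmed means were nearly equal between arrays. RNA was labelled with a 3' IVT kit, according to the labels. Here intensities were taken to log2, 62 control probe sets were left out, and probe sets above the array median on at least 3 of 6 arrays were kept. limma (lmFit, eBayes with a variance trend) compared the groups over 27618 probe sets, with Benjamini-Hochberg adjustment and two-sided tests. For counts of genes, the brightest kept probe set of each gene was used and p-values were adjusted over 11895 genes. Symbols came from the platform annotation, updated through Entrez identifiers. The members and lists were chosen with earlier results of these data known. Of each list the text names the genes past the threshold with the largest differences, or else those with the smallest p. PARP6, PARP11, PARP16, TIPARP, TNKS, PARG, NAMPT, XRCC1, KHNYN, TRIM25, DTX3 and further probe sets of listed genes fall outside this rule and were added after their values were seen. The fit was tested on simulated data. Alternatives were other normalizations, filters, variance models, an offset of 32, a replicate block, the actin ratio as a covariate, no _x_at or _s_at probe sets, averaging the probe sets of each gene, and leaving out each array. Promoter sequences were RefSeq's (GRCh38.p14); a further motif searched in them is not reported here. Software was limma 3.58.1 in R 4.3.3, and Python 3.11.15.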

Additional observations from a re-analysis of the deposited data

How the results depend on the processing

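PARP9, DTX3L and PARP14 lay above 0 at their brightest probe sets in every alternative run, and PARP14 passed in none of them. The count of 2 family probe sets called higher was 1 after array median centring, 1 without a filter and 1 without _x_at or _s_at probe sets, and 0 without the variance trend or with the actin covariate; with 1 array left out it ran from 0 to 3, and the count of genes from 0 to 2. The count of genes was 1 after median centring and without _x_at or _s_at probe sets, and 0 without the variance trend or with the actin covariate. The count of family members called lower was 0 in every alternative. The 21 interferon-stimulated genes called higher became 1 without the variance trend and 10 with the actin covariate, and 10 to 20 with 1 array left out. Over all genes, 0.042% were called higher without the variance trend and 2.28% with the actin covariate, against 1.94% in the reported setting. With 1 array left out that share ran from 0.34% to 2.74%, and 74 to 763 probe sets were higher, against 522. The median difference of the family was -0.041 after median centring, where the median over all probe sets tested was -0.11. Values near 0 that changed sign were PARP1 (-0.024 after median centring and -0.099 with the actin covariate), PARP4 (-0.036), PARP10 (-0.0052), PARP12 (-0.018) and ZC3HAV1 (-0.064 and -0.046), all after median centring, PARP2 (0.052 and 0.039 without negative replicate 1), and PARP8 (-0.010 after quantile normalization, -0.014 after cyclic loess, -0.12 after median centring, -0.011 without overexpression replicate 2, -0.0475 without negative replicate 2 and -0.23 as the mean of its probe sets). With 1 array left out the brighter PARP2 probe sets ran from -0.16 to 0.052 and from -0.089 to 0.039, and PARP8 from -0.0475 to 0.094; with the actin covariate they were -0.33, -0.20 and 0.26. The causes were not tested. Same-numbered arrays did not all deviate together from their group means (r = -0.011, -0.0068 and 0.10). Overexpression replicate 1 correlated best with negative replicate 2 (r = 0.11). Deviations from a mean of 3 arrays depend on one another, so these values cannot decide whether arrays were paired. The reported setting did not take replicate numbers as pairs. With the replicate block 2 family probe sets passed, as without it, while 702 probe sets were higher and 487 lower against 522 and 370. Under median centring all genes split into 165 higher and 1650 lower, against 231 and 225. With 3 arrays in each group and no detection calls used here, probe sets under the array median carry no statement of presence.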
